A study of Mus musculus with 12 samples.

Results

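The expression of 10 genes of the germ line and of meiosis was followed from J1 mouse embryonic stem (ES) cells into embryoid bodies (EBs), floating clumps of ES cells that have started to differentiate. They are Dazl, Ddx4, Mael, Stk31, Sycp1, Sycp3, Asz1, Taf7l, Slc25a31 and Kit, a list of names chosen with earlier results of these data known. Every probe set annotated to exactly 1 of them was used. The genes are 10 of the 18193 gene symbols that the annotation ties to probe sets with 1 gene. They had 14 probe sets, 12 of 22626 on chip A (MOE430A, 8 genes) and 2 of 22511 on chip B (MOE430B, Mael and Slc25a31). The EBs were J1 cells kept for 5 days in bacterial Petri dishes in medium with 10% serum. The ES cells were J1 cells grown for 2 days on gelatin in the same serum, with leukemia inhibitory factor, β-mercaptoethanol and sodium pyruvate added. There were 3 samples of each state, all hybridized to both chips, giving 12 arrays. The labels put the ES samples at 95% purity by eye, with DR4 feeder cells as the contaminant, and give no purity for the EBs. Whether the 3 samples of a state were grown separately is not given in the labels. The p-values therefore rest on a spread between samples that may be technical.

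Germ cells keep their lineage through RNA-binding proteins and through the piRNA pathway, in which small RNAs and their partner proteins silence transposons. In meiosis the homologous chromosomes are zipped together by the synaptonemal complex. Many of these genes carry CpG-rich promoters that are silenced in somatic cells, and in mouse ES cells a set of repressors, among them a Polycomb complex with MGA, MAX and E2F6, holds many of them down. Kit, the receptor for stem cell factor, is needed by migrating primordial germ cells and is also used by blood, mast and pigment cells, so it is not a marker of the germ line alone.

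The E-box CACGTG, the sequence to which MAX binds with its partners, lay in the promoter windows of 7 of the 10 genes. The windows are RefSeq's (GRCm38.p6) and run from 250 bases before to 50 after the annotated start, 300 bases in all. All 10 genes matched by symbol, and the first window listed was used for genes with several. The other 3 genes, Dazl, Asz1 and Kit, have no CACGTG in these windows. Of 27025 windows in the table, 1 per gene, 7.24% hold that motif. The members' windows are rich in CpG, with 15 to 38 each against a median of 7.0 over all genes, and CACGTG itself holds a CpG. Among the 9514 windows with at least 15 CpG, 11.5% hold it. GCGGGA, a core of E2F sites, was in 6 of the 10 windows, in 20.0% of all windows and in 45.2% of the CpG-rich ones. Both motifs were searched on both strands, and matches of the 2 motifs can share at most 1 end base. The windows of the 4 genes with the lowest unadjusted p-values in the comparison below are shown, a choice made after their values were seen, with the E-box in capitals.

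Taf7l (chrX:134476441-134476740, minus strand): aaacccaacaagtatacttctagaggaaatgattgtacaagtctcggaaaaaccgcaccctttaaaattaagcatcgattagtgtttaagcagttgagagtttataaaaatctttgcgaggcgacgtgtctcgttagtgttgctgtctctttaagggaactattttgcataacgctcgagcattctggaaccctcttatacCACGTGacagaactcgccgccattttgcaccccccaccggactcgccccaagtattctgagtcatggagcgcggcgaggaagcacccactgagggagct
Stk31 (chr6:49395289-49395588, plus strand): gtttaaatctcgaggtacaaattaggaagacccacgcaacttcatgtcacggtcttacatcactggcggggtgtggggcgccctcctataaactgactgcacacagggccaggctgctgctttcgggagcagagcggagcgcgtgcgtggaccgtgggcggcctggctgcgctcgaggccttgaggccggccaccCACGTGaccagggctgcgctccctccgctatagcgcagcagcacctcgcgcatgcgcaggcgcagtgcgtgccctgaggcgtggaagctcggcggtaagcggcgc
Ddx4 (chr13:112652261-112652560, minus strand): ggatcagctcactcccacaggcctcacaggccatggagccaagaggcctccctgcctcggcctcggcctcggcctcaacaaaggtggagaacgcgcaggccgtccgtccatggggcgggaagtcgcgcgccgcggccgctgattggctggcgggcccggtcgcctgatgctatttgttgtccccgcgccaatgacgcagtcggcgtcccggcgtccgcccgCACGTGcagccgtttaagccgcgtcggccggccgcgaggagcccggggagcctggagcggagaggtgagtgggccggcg
Mael (chr1:166238695-166238994, minus strand): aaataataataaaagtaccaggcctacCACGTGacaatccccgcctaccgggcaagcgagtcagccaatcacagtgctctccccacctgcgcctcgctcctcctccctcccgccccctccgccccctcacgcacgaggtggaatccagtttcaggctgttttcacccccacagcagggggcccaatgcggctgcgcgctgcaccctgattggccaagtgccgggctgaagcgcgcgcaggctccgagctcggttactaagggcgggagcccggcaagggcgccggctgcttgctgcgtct

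Counted from the start site, with negative positions upstream, the first base of the E-box is at -49 in Taf7l, -55 in Stk31, -29 in Ddx4 and -223 in Mael. It is at -94 in Sycp1 and -93 in Slc25a31, and Sycp3 has a pair of E-boxes, at -64 and -43. A match of letters is a description of the window and not a binding site.

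**Figure D1:**
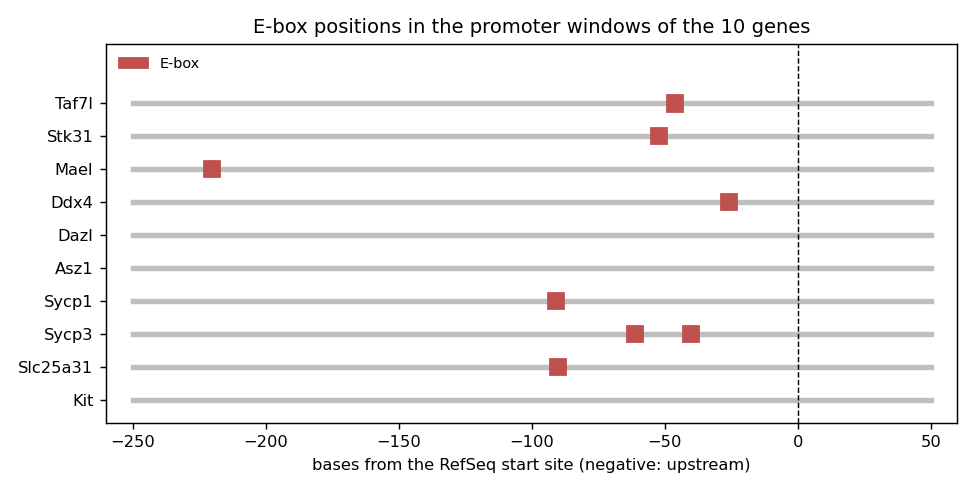
Position of the CACGTG E-box (red boxes) in the promoter windows of the 10 genes (grey lines), in bases from the RefSeq start site. The E-boxes of Taf7l, Stk31, Ddx4, Sycp1, Sycp3 and Slc25a31 begin between -94 and -29, and that of Mael begins at -223.

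Signals of these genes were low. The values are MAS5 signals on a linear scale, and the 20th percentile of all values, used below as a mark of dim signal, was 136 on chip A and 253 on chip B. On chip A, 14 of 36 EB values and 8 of 36 ES values of the members lay below it, and on chip B 3 of 6 and 2 of 6. By the mean of their 6 arrays, 9 of 12 chip A probe sets and 1 of 2 on chip B were above that mark. Only 1 probe set, the brighter of Kit, had a mean above its chip's median (623 on chip A, 954 on chip B).

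The comparison of EBs with ES cells asked whether these transcripts changed as the cells entered differentiation. Each chip was tested on its own with limma on log2(signal + the 20th percentile), adjusted over all probe sets of the chip. None of the 14 probe sets passed an adjusted p of 0.05. Over all probe sets 6.30% passed on chip A and 10.7% on chip B. An unadjusted p under 0.05 was reached by 3 of 12 member probe sets on chip A (Taf7l, Stk31 and Ddx4) and 1 of 2 on chip B (Mael), all of them lower in EBs. Of all probe sets 22.0% on chip A and 28.1% on chip B reached it, and 11.0% and 13.4% did so with the lower signal in EBs. Of the 12 on chip A, 11 had a negative log2 change, as did 55.2% of all, though the signs of 1 probe set each of Dazl, Kit and Sycp3 turned after quantile normalization, and their median was -0.31 against -0.05 over the chip. On chip B 1 of 2 was negative, as were 50.1% of all. The probe sets of 1 gene share their target, so these counts are not independent. On chip A 4 probe sets (Taf7l, Ddx4, 1 of Stk31 and 1 of Asz1) had all EB arrays below all ES arrays, beside 14.0% of the chip, and 0 had the opposite order, as 13.1% of the chip did. On chip B Mael had all EB arrays below all ES arrays, beside 16.2% of that chip.

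**Figure D2:**
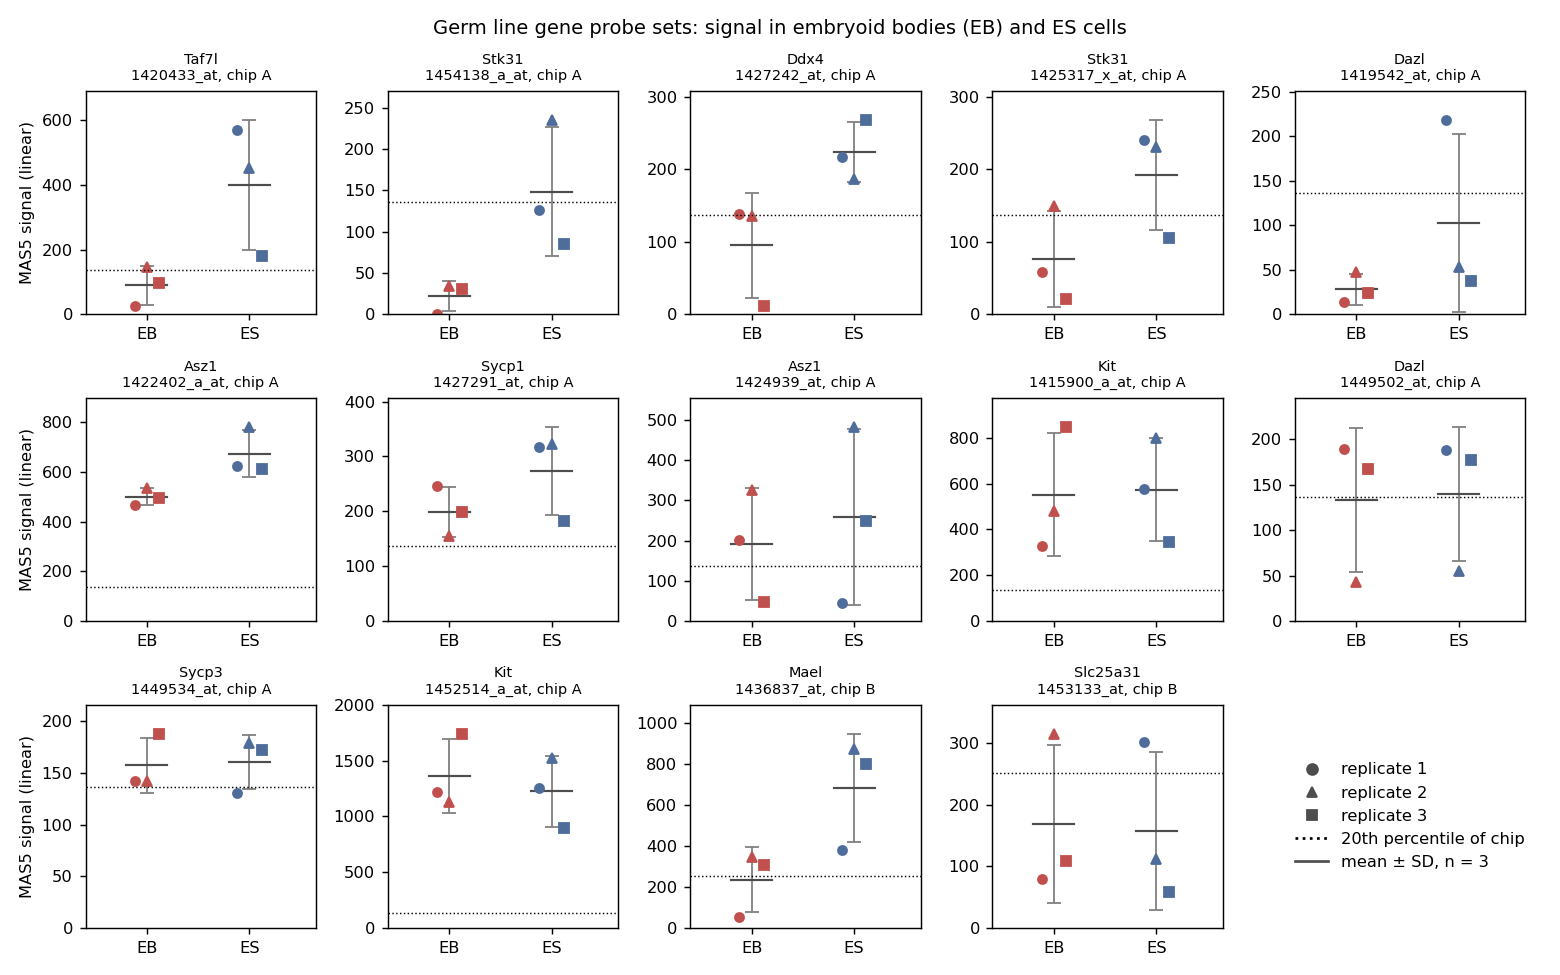
MAS5 signal (linear scale, from 0) of the 14 probe sets in each EB and ES array, with mean ± SD (n = 3) and the chip's 20th percentile as a dotted line. Taf7l, Ddx4, 1 probe set each of Stk31 and Asz1, and Mael show no overlap of the groups, and most other panels overlap widely.

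Among the piRNA and RNA-regulating genes, Stk31, a protein with a Tudor domain and a kinase-like domain, was measured by 2 probe sets. Probe set 1454138_a_at read 0.832, 34.7 and 30.5 in EBs, against 126, 235 and 84.7 in ES cells. All EB arrays were below all ES arrays, but the EB values and 2 of the 3 ES values were under the 20th percentile of the chip. The log2 change was -0.82 ± 0.23 (SE, 95% interval from -1.34 to -0.30, adjusted p = 0.0674). The second probe set, 1425317_x_at, read 58.0, 149 and 20.9 in EBs and 241, 231 and 105 in ES cells. Its groups overlapped, since ES replicate 3 lay below EB replicate 2, and its log2 change was -0.65 (interval from -1.30 to 0.01, adjusted p = 0.233).

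Ddx4, the mouse homolog of the Drosophila helicase vasa and a classic marker of germ cells, read 138, 136 and 11.0 in EBs, against 217, 186 and 268 in ES cells. The groups did not overlap, but 2 EB arrays were under the dim mark and EB replicate 1 was just above it. The log2 change was -0.69 (interval from -1.35 to -0.03, adjusted p = 0.206). On leaving out each array it ran from -0.84 to -0.39, the last without EB replicate 3 (adjusted p = 0.525). Mael, which acts in transposon silencing in the male germ line, was on chip B and read 54.2, 345 and 307 in EBs and 378, 869 and 796 in ES cells. Its lowest ES array stood just above its highest EB array, while EB replicate 1 was far below the others. The log2 change was -0.95 (interval from -1.84 to -0.06, adjusted p = 0.151), and the differences between arrays washed at the same fluidics position were -1.04, -0.91 and -0.90.

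Asz1, an ankyrin-repeat protein of the germ granules beside mitochondria, had 2 probe sets with unlike patterns over the arrays. With 1422402_a_at the EB arrays were tight, at 467, 536 and 496, against 624, 781 and 611 in ES cells, a log2 change of -0.34 (interval from -0.91 to 0.23, adjusted p = 0.480). With 1424939_at the values were 202, 327 and 48.0 in EBs and 44.3, 483 and 248 in ES cells, so both groups spanned low and high values. Dazl, an RNA-binding protein that promotes translation in germ cells, also had 2 probe sets. The first, 1419542_at, read 13.3, 47.4 and 24.0 in EBs, against 218, 52.7 and 37.6 in ES cells, where only ES replicate 1 stood above the dim mark. The other, 1449502_at, read 189.8, 43.3 and 167 in EBs and 188, 54.7 and 177 in ES cells, with replicate 2 the lowest in both states. Log2 changes were -0.47 (interval from -1.06 to 0.13) and -0.04 (from -0.74 to 0.66).

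Of the synaptonemal complex genes, Sycp1 makes the transverse filaments and Sycp3 the lateral elements. Sycp1 read 246, 155 and 198 in EBs, against 317, 323 and 182 in ES cells. The groups overlapped through ES replicate 3, and the log2 change was -0.28 (interval from -0.91 to 0.36, adjusted p = 0.622). Sycp3 read 142, 142 and 188 in EBs and 130.3, 179 and 172 in ES cells, close to the dim mark in all arrays. Its log2 change of -0.02 had an interval from -0.54 to 0.50, which leaves room for a change of moderate size.

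Taf7l, an X-linked testis form of the TFIID subunit Taf7, had the largest change of the 14 probe sets on the log2(signal + 20th percentile) scale, while with a pseudocount of 1 that of Stk31 (1454138_a_at) was larger, at -3.43 against -2.30 for Taf7l. It read 26.0, 147 and 97.2 in EBs, against 569, 453 and 179 in ES cells. All EB arrays were below all ES arrays, though ES replicate 3 came within reach of EB replicate 2. The log2 change was -1.20 ± 0.36 (SE), or 2.30-fold, with an interval from -2.02 to -0.39 and an adjusted p of 0.0833. Between arrays washed at the same fluidics position it was -1.32 (EB replicate 2 and ES replicate 1) and -1.33 (EB replicate 3 and ES replicate 2). Slc25a31, the ADP/ATP carrier of male germ cells, read 80.2, 316 and 109 in EBs and 303, 112 and 57.8 in ES cells on chip B. A single array stood above the dim mark in each group, and the log2 change was 0.04 (interval from -0.59 to 0.67).

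Kit was the brightest member. Probe set 1452514_a_at read 1220.0, 1129 and 1743 in EBs and 1251, 1528 and 898 in ES cells, a log2 change of 0.14 (interval from -0.41 to 0.69, adjusted p = 0.783). Probe set 1415900_a_at read 326, 480.1 and 848 in EBs and 575, 799 and 347 in ES cells, a log2 change of -0.07 (interval from -0.89 to 0.76). In both probe sets EB replicate 3 was the highest EB array and ES replicate 3 the lowest ES array, and the groups overlapped. Of the 5 genes listed as the Kit ligand and related receptors 0 passed the limma test and 0 had an unadjusted p under 0.05 (median log2 change -0.54). Csf1r, the macrophage colony-stimulating factor receptor, was the brightest and read 713, 1209.8 and 670.2 in EBs, against 1095, 1979 and 945 in ES cells (log2 change -0.54). Kitl, the gene of the Kit ligand, averaged 656 ± 197 in EBs and 792 ± 201 in ES cells (SD, n = 3 each, log2 change -0.24), and it is named for its role, with its values known.

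**Figure D3:**
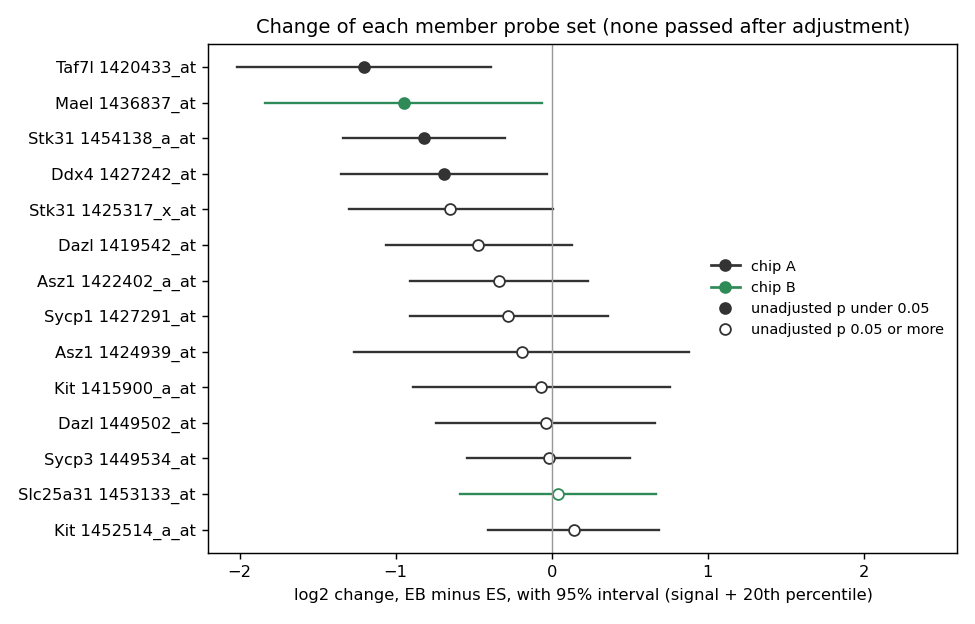
Log2 change of each of the 14 probe sets, EBs minus ES cells, with 95% intervals of the limma fit. Taf7l (-1.20), Mael (-0.95), Stk31 (-0.82 for 1 probe set) and Ddx4 (-0.69) have intervals that end below 0, none passed after adjustment over the chip, and the intervals of the rest include 0.

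Stk31 and Taf7l passed the threshold under 2 of the alternatives run. Without ES replicate 3 the adjusted p was 0.0373 for Stk31 (1454138_a_at, log2 change -0.99) and 0.0265 for Taf7l (log2 change -1.55). With the scan day as a random block they were 0.0385 and 0.0491. The 3 ES arrays of chip A share a scan day and each EB array has its own, so this block rests on the ES arrays alone. No scan day holds arrays of both states, so these adjusted p-values cannot reflect an adjustment for scan day. Leaving out any other array gave adjusted p from 0.123 to 0.234 for Stk31 and from 0.122 to 0.281 for Taf7l. With fluidics position as a block they were 0.138 and 0.0947. On chip A EB replicate 1 and ES replicate 3 each stood alone at their position and drop out of that fit. It rests on EB replicates 2 and 3 and ES replicates 1 and 2, so calls lost under it cannot be tied to position. ES replicate 3 was the lowest ES array in the summed signal of 9 ES cell markers, at 71881 beside 94709 and 104241. The EB arrays had 38466, 37930.0 and 38351. For Nanog and Tdgf1, though, ES replicate 3 was the highest ES array, at 6472 and 19298, and for the other markers it was the lowest.

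Other genes were taken from 8 lists of 146 names, which hold germ line genes, relatives of the members and repressors of germ line genes. Of these names 135 were measured, each by 1 probe set. Of the 135 genes 6 rose, 17 fell and 112 did not pass, with a median log2 change of -0.13. The repressors made up 4 of the 6 rises and 4 of the 17 falls, and the relatives 2 of the falls (Slc25a5 and Taf4b). Over all probe sets 3.39% rose and 2.91% fell on chip A, and 5.77% rose and 4.91% fell on chip B. Among 24 germ cell RNA-binding and piRNA genes, 0 rose and 4 fell (median -0.16). Tdrd12, a Tudor protein of the piRNA pathway, fell to 1230.0, 1958 and 3551 in EBs, against 13623, 13086 and 11787 in ES cells (5.63-fold, adjusted p = 0.00204). Tex19.1, which limits transposons in germ and ES cells, fell 3.29-fold to 724 ± 261 in EBs, against 2762 ± 1136 in ES cells (SD, n = 3, adjusted p = 0.0140). Mov10l1, a helicase needed for piRNA formation, read 61.5, 67.6 and 149 in EBs and 652, 469 and 293 in ES cells (adjusted p = 0.0340), and Rnf17, a Tudor protein of male germ cells, fell 2.31-fold (adjusted p = 0.0493). With fluidics position as a block, where EB replicate 1 and ES replicate 3 drop out, the adjusted p was 0.0843 for Mov10l1 and 0.197 for Rnf17. The calls of Tex19.1, Mov10l1 and Rnf17 were lost without ES replicate 1 or EB replicate 1 or 3, with adjusted p up to 0.171, while that of Tdrd12 was kept on leaving out any array (up to 0.0142). Pld6, a mitochondrial enzyme of piRNA formation, had the highest mean among those not called, with 1757 ± 175 in EBs and 2258 ± 59.5 in ES cells.

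Of 29 further meiotic chromosome and recombination genes, 0 passed the limma test and 4 had an unadjusted p under 0.05 (median log2 change -0.04). Syce2, of the central element of the synaptonemal complex, was the brightest and read 4994 ± 855 in EBs and 5279 ± 874 in ES cells (log2 change -0.08, interval from -0.48 to 0.32). Of 18 oocyte genes 1 rose and 2 fell. Ooep, a maternal-effect protein, fell to 3837, 5447 and 3247 in EBs, against 27274, 22646 and 19026 in ES cells (5.30-fold, adjusted p = 0.00104). Sohlh1, a germ cell helix-loop-helix factor, read 273, 325 and 1309.8 in EBs and 2118, 3971 and 2224 in ES cells (adjusted p = 0.0280, and up to 0.101 without any array but EB replicate 3). Zar1, a maternal-effect gene, rose 2.24-fold to 6538 ± 1365 in EBs, against 2809 ± 775 in ES cells (adjusted p = 0.0189, and up to 0.0666 without EB replicate 1 or 3 or ES replicate 1 or 3). Sohlh2, a relative of Sohlh1, averaged 4297 ± 557 in EBs and 2874 ± 524 in ES cells and did not pass (adjusted p = 0.136).

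Of 19 spermatid and testis enzyme genes 1 rose. Spata16, a protein of the forming acrosome, read 2283, 1115 and 3032 in EBs, against 64.8, 97.8 and 83.9 in ES cells (log2 change 2.75, adjusted p = 0.00492, and up to 0.0257 without any 1 array). All ES values were under the dim mark of chip B. Gapdhs, the glycolytic enzyme of sperm, was the brightest of the others and did not pass (log2 change -0.42). Among the listed relatives of Taf7l and Slc25a31, Slc25a5, a somatic ADP/ATP carrier, fell 1.70-fold. It averaged 18212 ± 2700.0 in EBs, against 30957 ± 2522 in ES cells (adjusted p = 0.0233). That adjusted p rose up to 0.115 without EB or ES replicate 1 or 2. Taf4b, a TFIID subunit enriched in gonads, fell 1.99-fold to 4523 ± 873 in EBs, against 9183 ± 646 in ES cells (adjusted p = 0.0128). Slc25a4, the carrier of heart and muscle, averaged 14115 ± 2639 in EBs and 8845 ± 1755 in ES cells and did not pass (adjusted p = 0.0687).

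Of 10 genes named for primordial germ cells 0 rose and 5 fell (median log2 change -1.27), but most are expressed in ES cells as well, so the list is not specific to germ cells. Ifitm3, an interferon-induced membrane protein, fell 4.39-fold to 4404 ± 732 in EBs, against 19743 ± 2692 in ES cells (adjusted p = 3.94e-04). Dppa5a, an RNA-binding protein of pluripotent cells, fell 3.26-fold (adjusted p = 0.00917), Alpl, the alkaline phosphatase of ES and germ cells, fell 2.54-fold (0.0282) and Dppa3, which guards methylation in the early embryo, fell 2.52-fold (0.0135). The calls of Alpl and Dppa3 were lost without EB replicate 1 or 3, with adjusted p up to 0.111. Ifitm2, a relative of Ifitm3, did not pass (log2 change -0.04).

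**Figure D4:**
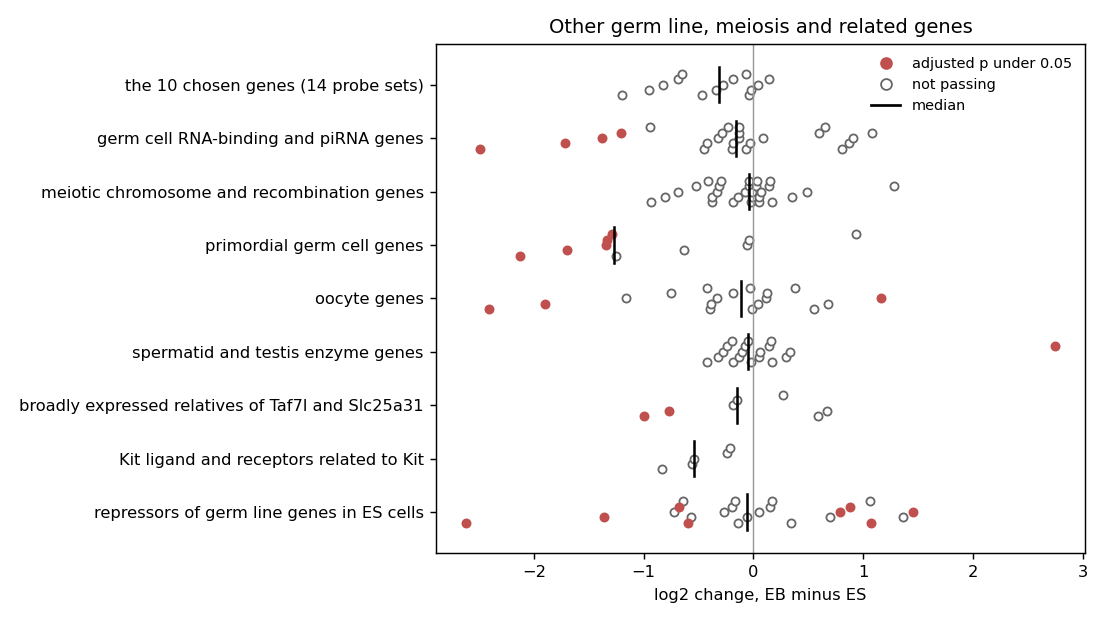
Log2 change, EBs minus ES cells, of the 14 probe sets of the chosen genes and of the genes of 8 lists (1 probe set per gene), with list medians as black bars and genes passing an adjusted p of 0.05 in red. The largest rise is Spata16 (2.75) in the testis list, the largest falls are Dnmt3l (-2.62) among the repressors and Tdrd12 (-2.49) among the piRNA genes, and no meiotic chromosome gene passed. The row of broadly expressed relatives also holds Taf4b, which is enriched in gonads.

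Repressors that act on germ line promoters in mouse ES cells moved both ways, with 4 rises and 4 falls among 23 measured. Dnmt3l, which stimulates the de novo DNA methyltransferases, fell to 1112 ± 348 in EBs, against 7718 ± 2732 in ES cells (6.16-fold, adjusted p = 0.00211). Mga, the E-box-binding partner of MAX, fell to 641, 346 and 982 in EBs, against 1665, 2173 and 1570.2 in ES cells (2.57-fold, adjusted p = 0.0321). Ehmt1, a histone H3 lysine methyltransferase, and Trim28, a corepressor, fell 1.60-fold and 1.51-fold (0.0275 and 0.0493). Yaf2, a Polycomb subunit, rose 2.72-fold to 4756 ± 414 in EBs, against 1742 ± 717 in ES cells (adjusted p = 0.0112). Hdac2, a histone deacetylase, Uhrf1, which guides maintenance methylation, and Rnf2, a Polycomb ubiquitin ligase, rose 2.10-fold, 1.84-fold and 1.73-fold (adjusted p = 0.0168, 0.0119 and 0.0149). Dnmt3b, a de novo methyltransferase, did not pass (log2 change 0.17). The calls of Mga, Ehmt1, Trim28, Hdac2, Uhrf1 and Rnf2 were lost without EB replicate 1 or ES replicate 1, with adjusted p up to 0.187, and that of Ehmt1 also after quantile normalization (adjusted p = 0.394). With fluidics position as a block, where EB replicate 1 and ES replicate 3 drop out, those of Trim28, Uhrf1 and Rnf2 were lost too (0.0993, 0.0629 and 0.0557).

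The culture states were checked by markers. Pou5f1 fell to 7688 ± 236 in EBs, against 14603 ± 1879.9 in ES cells (adjusted p = 0.00781). Of 9 ES cell markers 7 fell, led by Fgf4, Klf4, Zfp42 and Tdgf1, with 0 rises. The other 2 did not pass: Nanog (log2 change -0.16, adjusted p = 0.570) and Sox2 (log2 change -0.07, adjusted p = 0.892). Of 12 embryoid body lineage markers, Mixl1, Foxa2 and Pax6 rose and 0 fell. Leaving out EB replicate 1 or 3 ended these 3 calls, with adjusted p reaching 0.193 on leaving out 1 array. Those of Foxa2 and Pax6 also ended with fluidics position as a block (0.0557 and 0.151), where EB replicate 1 and ES replicate 3 drop out. Of 14 fibroblast markers 6 fell, among them Col1a1, S100a4, Fbln2 and Lox, and their summed signal was 5871 to 7694 in EBs and 19732 to 33456 in ES cells. In the blood and mast cell list 2 of 13 fell (Laptm5 and Cd34, sum 3738 to 4879.9 in EBs and 5894 to 8337 in ES cells), and in the melanocyte list 1 of 6 fell (Pmel, sum 3129 to 4660.2 in EBs and 4457 to 6808 in ES cells). Zfp42, Lox, Laptm5, Cd34 and Pmel did not pass without EB replicate 1 or ES replicate 1 (adjusted p up to 0.172), nor did Lox and Cd34 with fluidics position as a block (0.0592 and 0.155). No defining marker was listed at 0, which does not show that these cells were present. By the mean of their arrays, 2 of the 13 blood and mast cell markers lay under the dim mark, and 0 of the fibroblast and melanocyte markers. The part of these cells in the results on germ line genes was not tested, and in RNA from whole cultures fewer expressing cells and less RNA per cell cannot be told apart. The EB and ES arrays of each chip came from different chip lots and scan days, so lot, scan day and culture state cannot be told apart.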

How the data were processed

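RNA from EBs and ES cells had been hybridized to Affymetrix MOE430A and MOE430B arrays, 3 arrays per state and chip. The deposited tables give linear intensity values, 1 per probe set. The submitters' processing notes name MAS5 and no version. The trimmed mean of every array (2% off each end) was between 1500.1 and 1500.6, so the arrays had been scaled before deposit. They were not normalized again. The deposited instrument settings give fluidics position, chip lot and scan day. Probe sets were named through the platform annotation (20380 with 1 gene on chip A, 14661 on chip B), and 64 control probe sets per chip were left out.

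Each chip was fitted with limma 3.58.1 (R 4.3.3, linear fits followed by eBayes with trend = TRUE) on log2(intensity + the chip's 20th percentile), EBs minus ES cells, with Benjamini-Hochberg adjustment over the chip and a threshold of 0.05. This scale understates changes of low genes. Folds were taken on it and are not ratios of the printed means. The number of arrays limits the precision. The members and lists were chosen with earlier results of these data known. A gene of a list stood for 1 probe set (chip A before chip B, an ID not ending in _x_at, then the highest mean). Named from each list were up to 4 rises and 4 falls that passed without overlap of the groups, largest first, and the brightest that did not pass, and from each marker list up to 4 that passed. Pou5f1 was named to check the labels, and Nanog and Sox2 as the ES cell markers that did not pass. Promoters were to be shown for members that passed. Since none did, those with the lowest unadjusted p were shown. Alternatives were other scalings, pseudocounts, a dim filter, no trend, blocks and leaving out each array.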

Additional observations from a re-analysis of the deposited data

How the results depend on the processing

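On chip A 0 member probe sets passed in the reported fit and 2 (Stk31 and Taf7l) with scan day as a random block, and from 0 to 2 on leaving out each array (2 without ES replicate 3). No scan day holds arrays of both states, so the random block cannot adjust for scan day. On chip B the count was 0 under all alternatives run. Of 204 alternative values of the 14 probe sets, 177 kept their direction without passing, 4 passed and 23 turned sign, those in probe sets that passed under none of the alternatives. After quantile normalization the log2 change was 0.04 for Dazl (1449502_at), 0.01 for Kit (1415900_a_at), 0.08 for Sycp3 and -0.03 for Slc25a31. It was 0.01 for Kit (1415900_a_at) and 0.03 for Sycp3 after median scaling, and 0.05 for Sycp3 with fluidics position as a block. In that block EB replicate 1 and ES replicate 3 of chip A drop out, as each stood alone at its position. On leaving out each array the values ran from -0.67 to 0.22 for Asz1 (1424939_at), from -0.29 to 0.23 for Dazl (1449502_at), from -0.36 to 0.19 and from -0.04 to 0.30 for the probe sets of Kit, from -0.09 to 0.03 for Sycp3 and from -0.20 to 0.28 for Slc25a31. The cause was not tested. With a pseudocount of 1, Stk31 (1454138_a_at) moved to -3.43 and Taf7l to -2.30, without passing. Over all probe sets of chip A the calls numbered 1425 in the reported fit, 844 without an intensity trend, 2243 with scan day as a random block and from 436 to 2091 on leaving out each array. On chip B they numbered 2405, and from 934 to 1807 on leaving out each array. Among the 135 genes of the lists of germ line genes, relatives and repressors there were 23 calls, and from 9 to 25 on leaving out each array. Arrays with the same replicate number did not deviate together (correlations of same-numbered EB and ES arrays from -0.07 to 0.04), so the numbers were not taken to pair the samples, although on chip B same-numbered arrays share a fluidics position. With the replicate block 0 member probe sets passed on either chip, and 1136 and 2108 of all probe sets, and 20 genes of these lists. Of the markers, Cd34 did not pass after quantile normalization (0.0524), with a pseudocount of 1 (0.0598) or without an intensity trend (0.0531), Zfp42 without the trend (0.0735) and Pax6 with the chip median as pseudocount (0.0540). With the replicate block the calls of Mov10l1 (0.0637), Rnf17 (0.0618), Slc25a5 (0.0616), Trim28 (0.119), Pax6 (0.0815) and Cd34 (0.0511) were lost. Among the named list genes, the calls of Alpl, Slc25a5, Uhrf1, Rnf2, Mga, Ehmt1 and Trim28 were lost without an intensity trend (adjusted p from 0.0505 to 0.110), that of Rnf17 after quantile normalization (0.0539) and median scaling (0.0540), that of Trim28 after median scaling (0.0840), and those of Dppa3 and Slc25a5 with fluidics position as a block (0.0508 and 0.0530). With 3 arrays a group and most members near the dim mark, changes of moderate size in these genes may go undetected.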
